A study of Mus musculus with 3 samples.

Results

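DNA replication and S phase genes form the machinery with which a dividing cell copies its genome. The 53 genes examined here were taken by name from a list whose rule sets no threshold on a measured value, although the list was drawn up with earlier results of these data known. All 53 were found among the 18029 genes of the count table and passed the filter on low counts in CD4+ and in CD8+ T cells. They were sorted by role into 12 genes of origin licensing and the replicative helicase, 18 genes of the fork (polymerases, primase, sliding clamp and its loader, single-strand binding proteins, flap endonuclease and ligase), 4 genes of nucleotide supply, 7 genes of chromatin assembly, histone supply and maintenance methylation, 9 genes of repair, fork protection and checkpoint, and 3 genes of the G1/S transition.

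Before S phase, CDC6 and other factors load the MCM helicase onto origins, and geminin prevents loading from happening again in the same cycle. CDC45 and the GINS complex then switch the helicase on, DNA polymerase alpha with primase starts each strand, the clamp PCNA holds the other polymerases to the template, and RPA coats single strands. Ribonucleotide reductase, thymidylate synthase and dUTPase supply nucleotides. E2F transcription factors switch on most of these genes as cells leave G1, and T cells that answer antigen enter rapid division in which the program runs almost without pause. Calcineurin, the phosphatase that CSA (ciclosporin) inhibits, links the T cell receptor to NFAT factors and to IL-2.

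B6D2F1 recipients were irradiated and received B6 bone marrow, B6 T cells and a small number of TEa TCR transgenic T cells, a model of graft-versus-host disease. Every recipient was injected daily on day 0 to 6 with either saline or CSA, the latter at a low (5 mg/kg) or a high dose (50 mg/kg), and spleens were taken on day 7 from 6 mice per group, joined into 3 pools of 2 mice. Sorted CD4+ and CD8+ T cells of the 3 pools of a group were mixed and went through 1 droplet capture, so capture and treatment cannot be told apart, whereas both lineages of any 1 group share theirs. The tables held 10371 CD4+ and 10833 CD8+ cells, and the 280 TEa cells, which carry 1 receptor, were left out. No donor cells without alloreactive stimulus were among the groups, so saline mice are untreated disease and not a resting state.

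The summed counts held 3994968 to 7592334 UMIs per pool of CD4+ cells and 4392100 to 11454636 per pool of CD8+ cells, and the members had 38 to 4817 UMIs each per pool. Depth moved with treatment: the median cell had 3097, 4396 and 5979.5 UMIs with saline, 5 and 50 mg/kg in CD4+ cells and 4108, 6121.5 and 7183 in CD8+ cells. Cd4 was at 0 CPM (UMIs scaled to a fixed library size) in every CD8+ pool. Cd8a was at 0 in every CD4+ pool, while the CD8 markers in CD4+ pools, all of it Cd8b1, averaged 148 CPM under saline and 23.2 under the high dose. Whether the deposited cells were assigned or filtered by Cd4 and Cd8a is not given in the sources used here. The values of 0 are therefore no independent check of the lineage labels. Erythroid markers rose at 50 mg/kg in both lineages for 4 of 5 tested genes. They summed to 7.31 to 18.02 CPM under saline and 29.5 to 39.7 CPM under the high dose in CD4+ pools, and to 8.17 to 23.1 and 27.7 to 53.2 CPM in CD8+ pools. B and plasma cell markers summed to 160 to 170 CPM under saline and 545 to 672 CPM under the high dose in CD8+ pools, with Cd79a at no more than 1.22 CPM. The part of depth and of these other transcripts in the results was not tested. Of 20986 cell barcodes, 218 occurred in more than 1 capture. No doublet caller was run on the deposited cells, and how the study treated doublets is not given in the sources used here.

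Promoters are shown first because the members share a sequence feature that their choice did not use. Of the 53 members, 42 had a promoter in the RefSeq table (mm10, GRCm38.p6), covering 250 bases before to 50 bases after the start. The E2F core was searched on both strands as TTGGCGC, also as TTCCCGC, also as TTGCCGC and finally as TTCGCGC, with overlapping matches counted separately. It was found in 30 of 42 members (71.4%) and in 2936 of 27025 genes (10.9%). At least 2 matches were found in 13 members (31.0%) and in 1.37% of all genes. The CCAAT box, searched as ATTGG, was in 66.7% of member promoters and 41.1% of all, and the cell cycle homology region TTTGAA was in 11.9% and 20.2%. Below are the 130 bases before the start of 4 of the genes named in the results, 5′ to 3′, with E2F core matches in capitals. All 4 have a match in these bases, whereas Clspn, Rrm2, Mcm5 and Mcm10, also named below, have none there. Mcm6 was the most abundant licensing gene and had the most matches (5, of which 4 lie in the bases shown). Dtl fell most in CD8+ cells, and Rrm1 had the smallest p of the difference between lineages. Chaf1a had the largest change of the chromatin genes at 50 mg/kg in CD8+ cells.
Mcm6, chr1:128359706-128359835, minus strand: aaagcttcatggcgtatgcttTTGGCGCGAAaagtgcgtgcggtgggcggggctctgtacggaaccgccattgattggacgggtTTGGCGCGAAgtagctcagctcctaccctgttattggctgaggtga
Dtl, chr1:191575545-191575674, minus strand: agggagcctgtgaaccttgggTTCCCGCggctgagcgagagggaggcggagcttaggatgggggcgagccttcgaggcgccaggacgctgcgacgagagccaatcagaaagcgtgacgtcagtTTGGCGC
Rrm1, chr7:102441565-102441694, plus strand: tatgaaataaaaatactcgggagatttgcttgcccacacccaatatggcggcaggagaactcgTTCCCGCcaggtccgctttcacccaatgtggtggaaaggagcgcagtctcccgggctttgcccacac
Chaf1a, chr17:56040286-56040415, plus strand: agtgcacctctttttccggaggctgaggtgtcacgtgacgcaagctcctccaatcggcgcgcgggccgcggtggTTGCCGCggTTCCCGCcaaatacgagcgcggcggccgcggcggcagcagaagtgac
Each capital run of the Mcm6 promoter holds 2 overlapping matches on opposite strands, and the second match of Dtl ends at the base before the start. The median log2 difference at 50 mg/kg against saline was 0.07 over 30 members with and 0.16 over 12 without a match in CD4+ cells, and -0.45 and -0.18 in CD8+ cells. No promoter was available for Ccne2, Dscc1, Exo1, Gins1, Gins2, Gmnn, Mcm4, Pole, Rfc2, Tipin and Usp1.

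In saline-treated mice, CD8+ T cells carried more replication transcripts than CD4+ T cells from the same pools. The 53 genes took 0.459%, 0.469% and 0.454% of all UMIs in the 3 CD4+ pools and 0.680%, 0.679% and 0.650% in the 3 CD8+ pools, which did not overlap. Gene by gene, 52 of 53 members passed the test as higher in CD8+ cells, where 21.5% of all genes were called higher. The largest difference was that of Mcm10, which helps to activate the helicase, with log2 1.06 ± 0.09 (SE). Ung, the uracil glycosylase of base excision repair, was the exception at log2 0.16 with an adjusted p of 0.26. Clspn (0.85 ± 0.05), Chaf1a (0.89 ± 0.07) and Rpa2 (0.80 ± 0.05) were other members with large differences.

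Under CSA at 50 mg/kg the summed level of CD8+ pools came down to that of CD4+ pools. In CD8+ pools the genes took 0.485%, 0.532% and 0.499% of UMIs at 5 mg/kg and 0.410%, 0.372% and 0.381% at 50 mg/kg, so that the 3 groups did not overlap. In CD4+ pools they took 0.379%, 0.382% and 0.359% at 5 mg/kg and 0.403%, 0.365% and 0.373% at 50 mg/kg, both below every saline pool and overlapping each other. The ratio of the CD8+ to the CD4+ level within a pool was 1.45 ± 0.0256 (SD, n = 3) under saline, 1.35 ± 0.0651 for the low dose and 1.02 ± 0.0013 for the high dose. Counted per cell, a CD4+ cell held 17.0, 18.7 and 25.9 UMIs of these genes under saline, low and high dose, and a CD8+ cell held 32.1, 35.2 and 31.0, while the depth per cell increased.

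**Figure D1:**
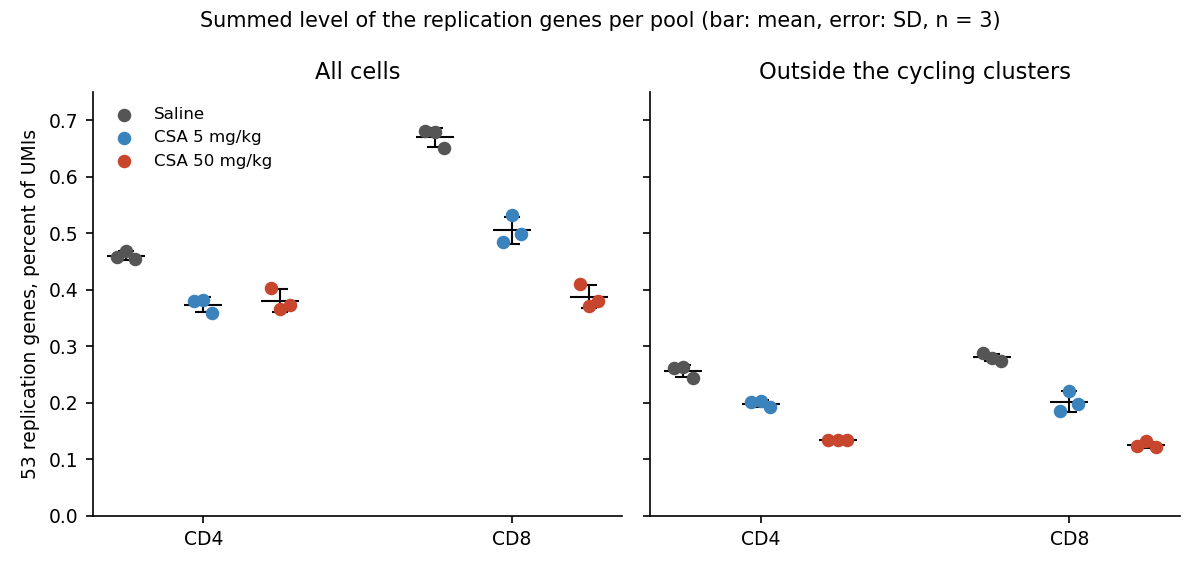
Summed level of the 53 replication and S phase genes as percent of all UMIs, one point per pool of 2 mice (n = 3 per group), for CD4+ and CD8+ T cells with saline, CSA 5 mg/kg and CSA 50 mg/kg, for all cells and for cells outside the cycling clusters. CD8+ pools went from between 0.650% and 0.680% with saline to between 0.372% and 0.410% at 50 mg/kg, the level of the CD4+ pools.

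Because both lineages of a pool shared a capture, the change in CD8+ cells was next compared with the change in CD4+ cells of the same pools. At 50 mg/kg the CD8+ change lay below the CD4+ change for all 53 members, by log2 0.06 to 0.88, and 47 passed the test of the difference, where 10.4% of all genes were called lower. The 6 that did not pass were Gins1, Pole, Ung, Rfc5, Rfc2 and Rpa1. The median difference was -0.49, against -0.01 over all genes. At 5 mg/kg only Dtl and Rrm2 passed by edgeR, with differences of -0.50 ± 0.11 (adjusted p = 0.0096) and -0.29 ± 0.07 (adjusted p = 0.017), and 1.54% of all genes were called lower. The 2 calls became 1 without low dose pool 1, low dose pool 2 or saline pool 1, and 0 without saline pool 2. DESeq2 called 26 of 53 lower at 50 mg/kg and 1 at 5 mg/kg. Calls by DESeq2 were not counted over all genes, so its counts here and below have no share to be read against.

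The 5 genes with the smallest p of this difference at 50 mg/kg were Rrm1, Clspn, Rrm2, Uhrf1 and Mcm5. Rrm1 encodes the large subunit of ribonucleotide reductase, the enzyme that makes deoxyribonucleotides. Its TMM-scaled CPM in CD8+ pools was 242, 246 and 231 with saline, 167, 177 and 169 at 5 mg/kg and 132, 118 and 138 at 50 mg/kg, and in CD4+ pools 152, 165 and 157, then 126, 128 and 125, then 148, 129 and 139. The log2 change at 50 mg/kg was -0.89 ± 0.05 in CD8+ and -0.19 ± 0.05 in CD4+ cells, and the difference was -0.73 ± 0.06 (adjusted p = 6.8e-09). Clspn, the checkpoint adaptor claspin, went from 107, 98.7 and 104 CPM with saline to 61.9, 57.9 and 62.5 at 50 mg/kg in CD8+ pools and from 56.1, 61.6 and 62.6 to 65.6, 59.6 and 65.7 in CD4+ pools. CD8+ groups were apart and CD4+ groups overlapped, with a difference of -0.86 ± 0.08 (adjusted p = 3.2e-08). Rrm2 is the small subunit of ribonucleotide reductase, and its CPM went from 292, 296 and 270 with saline to 281, 231 and 250 at 50 mg/kg in CD8+ pools and from 180, 196 and 192 to 264, 252 and 256 in CD4+ pools. Its difference was -0.64 ± 0.07 (adjusted p = 1.4e-07). Uhrf1, which brings the maintenance methyltransferase to new DNA, had a difference of -0.71 ± 0.08 (adjusted p = 3.1e-07), and its CD8+ CPM went from 109, 111 and 102 with saline to 74.2, 67.8 and 68.7. Mcm5, a subunit of the helicase, had 171, 176 and 174 CPM with saline and 164, 150 and 148 at 50 mg/kg in CD8+ pools. In CD4+ pools Mcm5 had 107, 115 and 113 CPM with saline and 151, 132 and 135 at 50 mg/kg, and the difference was -0.52 ± 0.06 (adjusted p = 6.4e-07).

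**Figure D2:**
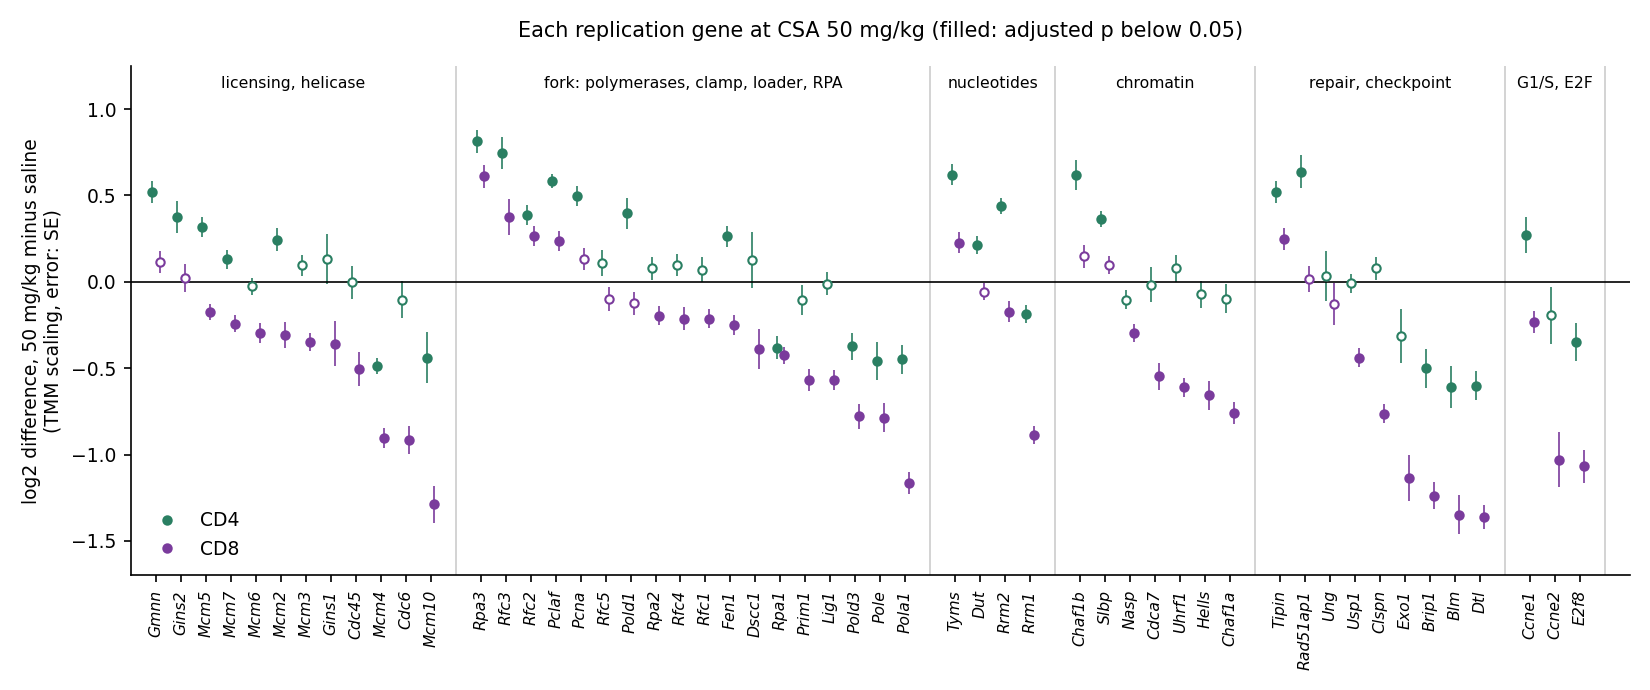
Log2 difference at CSA 50 mg/kg against saline of each of the 53 members in CD4+ and in CD8+ T cells (TMM scaling, edgeR, 3 pools per group), with genes grouped by role. The CD8+ value lies below the CD4+ value for all 53 members.

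Within CD8+ T cells, members moved both ways at 5 mg/kg with TMM scaling, and most of the list fell at 50 mg/kg. At 5 mg/kg, 21 members fell and 14 rose, where 30.3% and 29.9% of all genes were called lower and higher. The median of the members at that dose was -0.05. With library size scaling 40 were lower and 2 higher at that dose, where 57.8% and 10.9% of all genes were. For the high dose, 37 of 53 fell and 6 rose, where 36.9% and 37.1% of all genes did, and the median was -0.31. Between the doses 38 members were lower and 0 higher at 50 mg/kg, where 21% and 20% of all genes were called. With TMM scaling the 3 pools at 50 mg/kg lay below every saline pool for 36 members and above for 8. With library size scaling these counts were 51 and 0. Pools that do not overlap were not counted over all genes, so these counts have no share to be read against. All 21 members lower at 5 mg/kg were also lower at 50 mg/kg.

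In CD4+ T cells, members moved both ways and the balance depended on how pools were scaled. With TMM scaling 14 rose and 10 fell at 5 mg/kg (26.1% and 25.6% of all genes), 20 rose and 11 fell at 50 mg/kg (34.7% and 35.8%), and 15 were higher and 6 lower at 50 than at 5 mg/kg (19.9% and 21.3%). Scaled to library size alone, 37 were lower and 1 higher at 5 mg/kg in CD4+ cells (54.1% and 8.76% of all genes). That scaling moved the median of all genes by -0.45 at 50 mg/kg in CD4+ and by -0.53 in CD8+ cells. With it 35 members were lower and 4 higher at 50 mg/kg in CD4+ cells, where 59% and 15.1% of all genes were, and 51 lower and 0 higher in CD8+ cells, where 62.7% and 15.6% were. At 50 mg/kg the fall in CD8+ cells and the difference between lineages kept their direction under both scalings, and the direction in CD4+ cells did not.

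Of the licensing and helicase genes, 10 of 12 fell in CD8+ cells and 0 rose, 5 rose and 2 fell in CD4+ cells (0 and 8 with library size scaling), and 11 passed the test of the difference. Mcm6, a helicase subunit, was the most abundant, with 253, 254 and 255 CPM with saline, 239, 261 and 236 at 5 mg/kg and 231, 191 and 198 at 50 mg/kg in CD8+ pools. The 50 mg/kg pools were all below saline at log2 -0.30 ± 0.06 (adjusted p = 0.00018), and the value turned to 0.09, which did not pass, with the transcript length trend removed. In CD4+ pools Mcm6 was 194, 197 and 184 CPM with saline and 200, 182 and 183 at 50 mg/kg, which overlapped. Mcm10 had the largest change of the role in CD8+ cells, from 26.7, 29.96 and 27.6 CPM with saline through 20.2, 22.1 and 17.5 at the low dose to 11.9, 9.82 and 12.6, or -1.29 ± 0.11 (adjusted p = 6.2e-09). In CD4+ cells Mcm10 was at -0.44 ± 0.15 (adjusted p = 0.013), which did not pass without high dose pool 2 (-0.35), without saline pool 2 (-0.34) or with the length trend removed (-0.0071). Gmnn, encoding geminin, rose in CD4+ pools from 75.2, 73.6 and 76.2 to 110, 105 and 107 CPM with TMM scaling (0.52 ± 0.06), and the rise did not pass with library size scaling (0.08) and turned to -0.09 with the transcript length trend removed. Mcm2 was called higher in CD4+ and lower in CD8+ cells at 0.24 ± 0.07 and -0.31 ± 0.07, and its CD4+ value turned to -0.20 with library size scaling.

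Fork genes were mixed: 11 of 18 fell and 4 rose in CD8+ cells (16 and 0 with library size scaling), 7 rose and 4 fell in CD4+ cells (3 and 11), and 14 passed the test of the difference. Pola1, the catalytic subunit of DNA polymerase alpha, had 82.6, 85.7 and 84.5 CPM with saline, 61.1, 65.3 and 63.5 at 5 mg/kg and 41.5, 33.7 and 37.5 at 50 mg/kg in CD8+ pools. The 3 groups were apart, and the change at 50 mg/kg was -1.17 ± 0.06 in CD8+ and -0.45 ± 0.08 in CD4+ cells, the latter at 0.05 with the length trend removed. Rpa3, the smallest subunit of the single-strand binding protein RPA, was the member with the largest rise, with 52.6, 55.5 and 48.2 CPM with saline and 98.3, 87.9 and 88.5 at 50 mg/kg in CD4+ pools and 55.4, 60.3 and 54.5 against 93.6, 78.5 and 88.0 in CD8+ pools. Its rise of 0.81 ± 0.07 and 0.61 ± 0.07 turned to -0.07 and -0.48 with the length trend removed, and the latter then passed as lower. Pclaf, a PCNA-binding factor and the most abundant member, rose from 260, 270 and 266 to 418, 389 and 389 CPM in CD4+ pools (0.58 ± 0.04). In CD8+ pools Pclaf had 408, 399 and 373 CPM with saline and 484, 416 and 492 at 50 mg/kg, a rise of 0.24 ± 0.06 that turned to -0.29 with library size scaling. Fen1, the flap endonuclease, was called higher in CD4+ (0.26 ± 0.06) and lower in CD8+ cells (-0.25 ± 0.06), and its CD4+ value turned to -0.17 with library size scaling. Rpa2 changed direction between doses in CD8+ cells, from 158, 162 and 155 CPM with saline to 185, 213 and 199 at 5 mg/kg and 140, 128 and 145 at 50 mg/kg, and its rise at 5 mg/kg (0.34 ± 0.06) was -0.09 with library size scaling.

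Of the 4 nucleotide supply genes, with TMM scaling Tyms rose in both lineages, Dut and Rrm2 rose in CD4+ cells, Rrm1 fell in both and Rrm2 fell in CD8+ cells (-0.17 ± 0.06), the last not passing without high dose pool 2, saline pool 1 or saline pool 2. With library size scaling 1 rose and 2 fell in CD4+ cells and all 4 fell in CD8+ cells. With the length trend removed the CD4+ values of Rrm1 and Dut turned to 0.08 and -0.09, and neither passed. Tyms, thymidylate synthase, had 97.6, 102 and 99.2 CPM with saline and 168, 138 and 154 at 50 mg/kg in CD4+ pools, a rise of 0.62 ± 0.06 that was 0.70 with the length trend removed. In CD8+ cells Tyms had 130, 116 and 112 CPM with saline and 147, 132 and 139 at 50 mg/kg, and its rise of 0.23 ± 0.06 turned to -0.30 with library size scaling. Dut, dUTPase, had its highest values at 5 mg/kg in CD8+ pools, with 291, 290 and 290 CPM with saline, 414, 467 and 422 at 5 mg/kg and 297, 263 and 278 at 50 mg/kg. The change was 0.58 ± 0.05 at 5 mg/kg and -0.06 ± 0.05 (adjusted p = 0.32) at 50 mg/kg. The 2 subunits of ribonucleotide reductase were called in opposite directions in CD4+ cells with TMM scaling, Rrm2 at 0.44 ± 0.04 and Rrm1 at -0.19 ± 0.05. Neither alternative kept both calls, since Rrm2 was at 0.00 with library size scaling and Rrm1 at 0.08 with the length trend removed.

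Chromatin genes fell in CD8+ cells for 5 of 7, rose in CD4+ cells for 2 (0 rose and 5 fell there with library size scaling), and passed the test of the difference for 7 of 7. Chaf1a, the large subunit of chromatin assembly factor 1, had 54.3, 52.4 and 54.4 CPM with saline and 33.1, 30.4 and 31.7 at 50 mg/kg in CD8+ pools, which were apart (-0.76 ± 0.06). In CD4+ pools it had 29.7, 30.8 and 31.1 against 30.5, 27.7 and 27.8, and the difference between the lineages was -0.68 ± 0.10 (adjusted p = 2.1e-05). Its partner subunit Chaf1b rose in CD4+ pools from 33.7, 34.1 and 32.7 to 55.6, 52.7 and 46.4 CPM (0.62 ± 0.09, adjusted p = 2.1e-06), which did not pass with library size scaling, and was at 0.15 ± 0.07 in CD8+ cells. Slbp, which binds the end of histone messages, was at 0.36 ± 0.05 in CD4+ cells, turning to -0.08 with library size scaling, and at 0.10 ± 0.05 in CD8+ cells. Cdca7, a cofactor of the remodeler Hells, had 47.1, 47.1 and 43.5 CPM with saline, 55.2, 65.1 and 56.6 at 5 mg/kg and 32.2, 33.3 and 29.1 at 50 mg/kg in CD8+ pools. It was called higher at 5 mg/kg (0.36 ± 0.07, but -0.06 with library size scaling) and lower at 50 mg/kg (-0.55 ± 0.08).

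Repair and checkpoint genes fell in CD8+ cells for 6 of 9 and rose for 1 (9 and 0 with library size scaling). In CD4+ cells 2 rose and 3 fell (0 and 7), and 8 passed the test of the difference. Dtl targets licensing factors for destruction during S phase. It had 61.2, 60.4 and 58.5 CPM with saline, 35.7, 33.5 and 37.0 at 5 mg/kg and 25.4, 22.7 and 22.3 at 50 mg/kg in CD8+ pools. In CD4+ pools the values were 40.0, 37.1 and 38.6, then 32.3, 33.0 and 29.9, then 25.1, 23.9 and 26.9. Dtl fell stepwise in both lineages with no overlap between groups, by -1.36 ± 0.07 in CD8+ and -0.60 ± 0.08 in CD4+ cells at 50 mg/kg, and the difference was -0.78 ± 0.11 (adjusted p = 1.1e-05). Usp1, a deubiquitinase of PCNA and the Fanconi pathway, had 143, 144 and 151 CPM with saline and 117, 103 and 104 at 50 mg/kg in CD8+ pools (-0.44 ± 0.06), and overlapping values of 116, 115 and 115 against 122, 111 and 111 in CD4+ pools. Rad51ap1 rose in CD4+ cells by 0.64 ± 0.10, did not pass there with library size scaling, and was at 0.02 ± 0.07 in CD8+ cells.

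All 3 G1/S genes fell in CD8+ cells and passed the test of the difference. In CD4+ cells 1 rose and 1 fell (0 and 2 with library size scaling). E2f8 is a repressor that shuts the E2F program off later in the cycle. It had 45.5, 46.9 and 45.1 CPM with saline, 23.2, 32.0 and 29.1 at 5 mg/kg and 20.7, 24.7 and 20.4 at 50 mg/kg in CD8+ pools (-1.07 ± 0.10, adjusted p = 1.4e-08), and both doses lay below saline. In CD4+ cells E2f8 was at -0.35 ± 0.11 (adjusted p = 0.0087), which did not pass without saline pool 2 (-0.29) or with the length trend removed (-0.14). Ccne1, cyclin E1, was called higher in CD4+ (0.27 ± 0.10, adjusted p = 0.025) and lower in CD8+ cells (-0.23 ± 0.06, adjusted p = 0.0035), and its CD4+ value turned to -0.17 with library size scaling and to -0.02 with the length trend removed. Its CD4+ call was lost without high dose pool 1 (0.25), high dose pool 3 (0.17) or saline pool 3 (0.17).

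Transcript length moved with these changes in all genes. Across the genes with a length, 10078 in CD4+ and 10257 in CD8+ cells, the rank correlation of the log2 change at 50 mg/kg with the longest coding transcript was -0.60 in both lineages, as a description across genes. Over the 53 members it was -0.63 in CD4+ and -0.63 in CD8+ cells, and for the difference between lineages it was -0.41 over members and -0.15 over 10397 genes. The 27 members at or below the median of 3069 bases had a median change of 0.13 in CD4+ and -0.20 in CD8+ cells, and the 26 longer ones -0.09 and -0.71. Among the 20 members that rose in CD4+ cells 14 were short, and of the 11 that fell 10 were long. A fit in which the trend with length was taken out of each pool called 21 higher and 9 lower in CD4+ cells (29% and 27.7% of all genes), of which 12 and 3 were also called without it. In CD8+ cells it called 4 higher and 38 lower (32% and 31.4%), of which 2 and 30 were, and all 47 differences between lineages were called in both. Over the members the correction went past 0: their rank correlation with length became 0.48 in CD4+ and 0.28 in CD8+ cells at 50 mg/kg and 0.58 and 0.30 at 5 mg/kg, which limits what a turned sign in this fit shows. The cause of the trend was not tested.

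**Figure D3:**
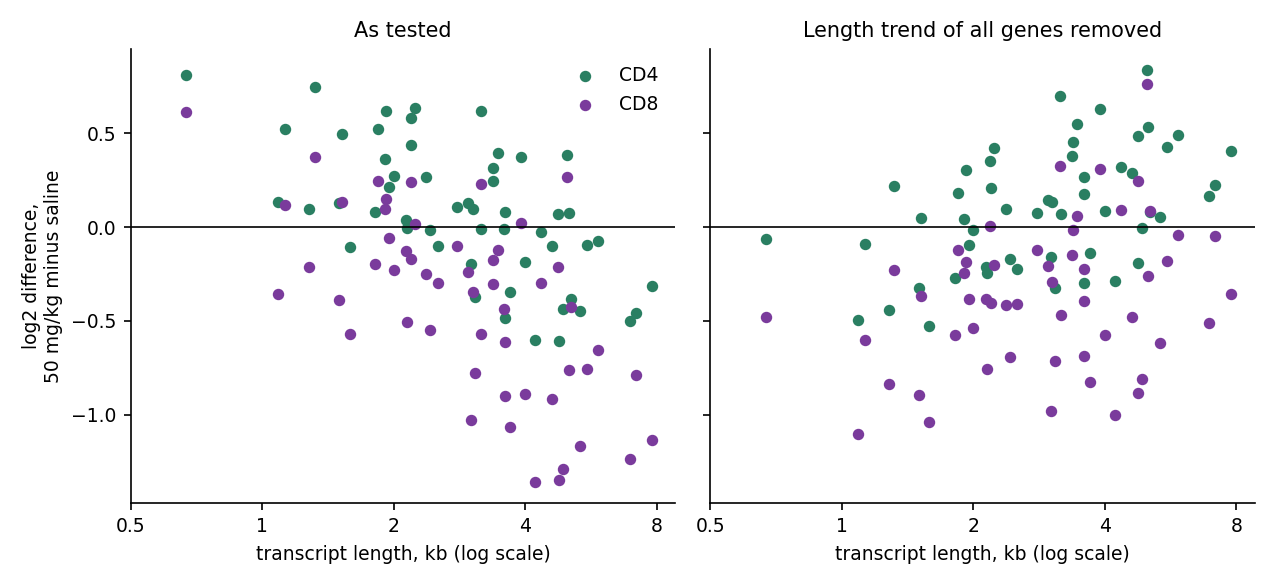
Log2 change at CSA 50 mg/kg against saline plotted on transcript length (kb, log axis) for the 53 members in CD4+ and in CD8+ T cells. The left panel shows values as tested, the right panel those with the length trend of all genes removed. As tested, changes lie lower at greater length (rank correlation -0.63 in both lineages). All genes, which are not plotted, had -0.60. With the trend removed the members' correlation was 0.48 in CD4+ and 0.28 in CD8+ cells.

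The authors' clusters separated where the transcripts lay. CD4+ clusters carry the study's numbers, whereas the deposited CD8+ clusters are numbered otherwise and were given the study's names here by matching their cell numbers, so CD8+ cluster names rest on that match. Clusters were made from the same cells and genes, so which cells are in a cycling cluster is not independent of the members, and clusters are not tested against each other. Of all member UMIs, the 3 cycling clusters of CD4+ cells (C3, C5 and C6) held 63.0%, 64.6% and 81.0% under saline, low and high dose, with 21.7%, 23.1% and 33.1% of the cells. Those of CD8+ cells (C2, C3 and C4) held 86.2%, 84.6% and 85.9% of member UMIs and 53.3%, 49.3% and 45.1% of the cells. Their make-up changed: CD4+ C6, cycling Cd226hi effectors, went from 10.9% to 1.11% of cells and C3, cycling Cd226lo effectors, from 4.35% to 17.7%. CD8+ C4, cycling Cd226hi effectors, went from 21.9% to 0.567%, which left 20 cells. With each cluster held at its share of UMIs with saline, the summed level at 50 mg/kg was 0.344% in CD4+ and 0.513% in CD8+ cells. With each cluster held at its saline level instead, so that only shares changed, it was 0.451% and 0.540%, against 0.460% and 0.670% with saline.

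**Figure D4:**
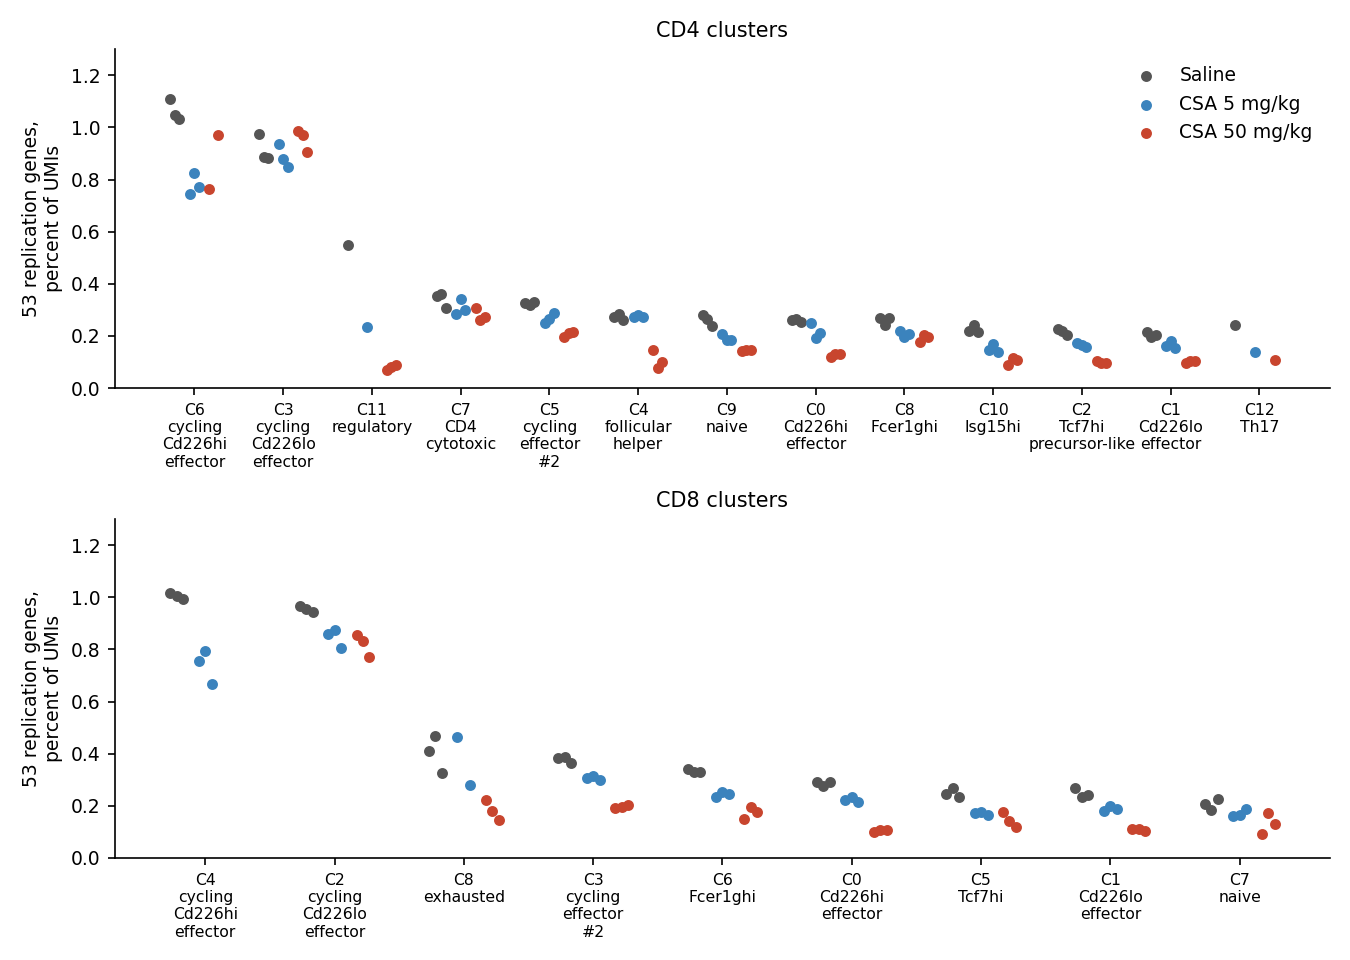
Summed level of the 53 genes as percent of UMIs in each cluster, 1 point per pool, for saline, CSA 5 mg/kg and CSA 50 mg/kg in CD4+ and CD8+ T cells. Pools with fewer than 10 cells of a cluster are not plotted. Mean levels were 0.915%, 0.888% and 0.954% in CD4+ C3 and 0.955%, 0.846% and 0.820% in CD8+ C2. Outside the cycling clusters, the mean over all pools was lowest at 50 mg/kg in every cluster. Pools at 5 and 50 mg/kg overlapped in CD4+ C7 and C8 and in CD8+ C5 and C7.

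Among cells that the authors did not place in a cycling cluster, members fell in both lineages at 50 mg/kg. The summed level went from 0.256% ± 0.0104 (SD, n = 3) with saline to 0.198% ± 0.0058 and 0.134% ± 0.0007 in CD4+ cells, and from 0.280% ± 0.0069 to 0.202% ± 0.0184 and 0.125% ± 0.0057 in CD8+ cells, with no overlap between groups. At 50 mg/kg, 38 of 53 members were lower in CD4+ cells (33.9% of all genes) and 43 of 52 in CD8+ cells (33.3%), with medians of -0.73 and -0.85. At 5 mg/kg 4 and 7 were lower (22.4% and 23%), against 31 and 36 with library size scaling (49.3% and 51.6%). Against 5 mg/kg, 41 and 39 were lower at 50 mg/kg (19.1% and 15.2%). Rrm2 fell by 1.79 on the log2 scale in CD4+ cells outside the cycling clusters, while over all CD4+ cells it was at 0.44. Mcm10 (-1.92), Cdc6 (-1.82) and E2f8 (-1.82) were among those that fell most in CD4+ cells, and E2f8 (-2.61), Rad51ap1 (-2.42), Cdc6 (-2.09) and Rrm2 (-2.02) in CD8+ cells. Rpa3 was the 1 member that rose in CD4+ cells (0.29 with TMM scaling). The summed level was lower at 50 mg/kg in follicular helper cells (0.273% and 0.107%), regulatory cells (0.387% and 0.080%) and naive cells (0.261% and 0.144%) of the CD4+ lineage, and in Cd226hi effectors (0.286% and 0.104%) and naive cells (0.206% and 0.131%) of the CD8+ lineage. Regulatory cells under saline numbered 20, with as few as 2 in a pool, and their pools ranged from 0.245% to 0.547%. Follicular helper cells at 50 mg/kg numbered 45, with 126 member UMIs. Of the CD4+ clusters outside the cycling ones, cytotoxic cells (0.340% and 0.281%) and Fcer1ghi cells (0.261% and 0.192%) moved least.

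Inside the cycling clusters, counts differed between clusters and with the scaling. In CD4+ C3, 12 of 53 members were higher at 50 mg/kg (8.89% of all genes), among them Tyms (0.63), Rrm2 (0.60), Slbp (0.59), Chaf1b (0.57) and Pcna (0.57). In CD4+ C5, called cycling effector #2, 13 of 35 tested members were lower (27.3%), and 27 with library size scaling (45%). In CD8+ C2, the cycling Cd226lo effectors, 16 rose and 13 fell (27.2% and 27.5%), the former led by Pclaf (0.70), Tyms (0.69) and Rpa3 (0.67) and the latter by Dtl (-1.03), Ccne2 (-0.70) and Mcm10 (-0.66). With library size scaling 4 were higher and 32 lower in that cluster (10.8% and 47.8%). In CD8+ C3, cycling effector #2, 35 of 48 were lower (30%), led by the loader Cdc6 (-2.72), Dtl (-2.42), Hells (-1.82), Clspn (-1.79) and the helicase Blm (-1.76). At 5 mg/kg the Cd226hi clusters had 16 of 49 members lower in CD4+ C6 (5.6% of all genes), led by Mcm7 (-0.94), Prim1 (-0.80) and Pcna (-0.79), and 14 of 53 in CD8+ C4 (1.31%), led by Cdc6 (-1.56) and Rfc2 (-1.22). At 50 mg/kg CD4+ C6 held 1.11% of cells, 34 over all pools. Its pool of 7 cells was under the limit of 10 and was left out of the test. Then 0 of its 49 members were called by edgeR or by DESeq2 (1.24% of all genes lower by edgeR), with a median of -0.15. At an unadjusted p under 0.05 were 11 members by edgeR and 7 by DESeq2, of which 9 and 5 were lower. With so few cells, 0 calls do not show that the members were unchanged. These counts moved by over 1.5 times in some fits: CD4+ C3 had 7 higher without saline pool 2, CD4+ C5 had 8 lower without high dose pool 1 or saline pool 3, CD4+ C6 had 7 without low dose pool 1 and 10 without low dose pool 3, and CD8+ C4 had 9 and 8 without low dose pool 1 and 2.

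Thinning to 2000 UMIs gave every cell the same depth. The share of cells with at least 10 member UMIs was then 21.0% ± 0.859 (SD, n = 3) under saline, 19.4% ± 1.70 for the low dose and 18.6% ± 1.38 for the high dose in CD4+ cells, 20.02% to 21.6% against 17.1% to 19.6% between the lowest and highest pools of saline and 50 mg/kg. With a limit of 15 member UMIs, chosen after the data were seen, the CD4+ groups overlapped, at 13.1% to 13.7% under saline and 11.9% to 14.9% under the high dose. In CD8+ cells the share at 10 UMIs was 44.2% ± 0.629, 33.9% ± 3.22 and 22.3% ± 2.53, with no overlap between the groups, nor at 15 UMIs (31.1%, 21.3% and 13.8%). The naive cluster, which should hold few cells in S phase, had 3.33%, 0.855% and 3.18% in CD4+ and 3.64%, 2.38% and 1.13% in CD8+ cells, from medians of 1981 to 3216 and 3499 to 4995 UMIs per cell before thinning. Outside the cycling clusters the share went from 6.24% to 2.02% in CD4+ and from 10.6% to 1.84% in CD8+ cells. Under the high dose these shares lay within the naive range of 0% to 5% in CD4+ and 0% to 3.39% in CD8+ cells. Such ranges come from few cells, so these shares are not told apart from background. Naive cells are also among the cells outside the cycling clusters. Under saline the CD4+ share (5.71% to 6.79%) also lay within its naive range (0% to 10%), so it is not told apart from background either. The CD8+ share under saline (10.2% to 11.3%) lay above its naive range (2.56% to 5.41%). The naive level is poorly measured, from 12 to 41 naive CD4+ and 34 to 59 naive CD8+ cells per pool. Without thinning, 37.9%, 40.2% and 38.3% of CD4+ and 65.5%, 65.0% and 49.6% of CD8+ cells passed 10 UMIs. Cells with under 2000 UMIs, 395, 452 and 80 CD4+ and 121, 83 and 8 CD8+ cells, were left out. Between 8 and 11 UMIs, near the limit, lay 13.0%, 7.63% and 5.43% of CD4+ and 15.3%, 11.9% and 7.89% of CD8+ cells.

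**Figure D5:**
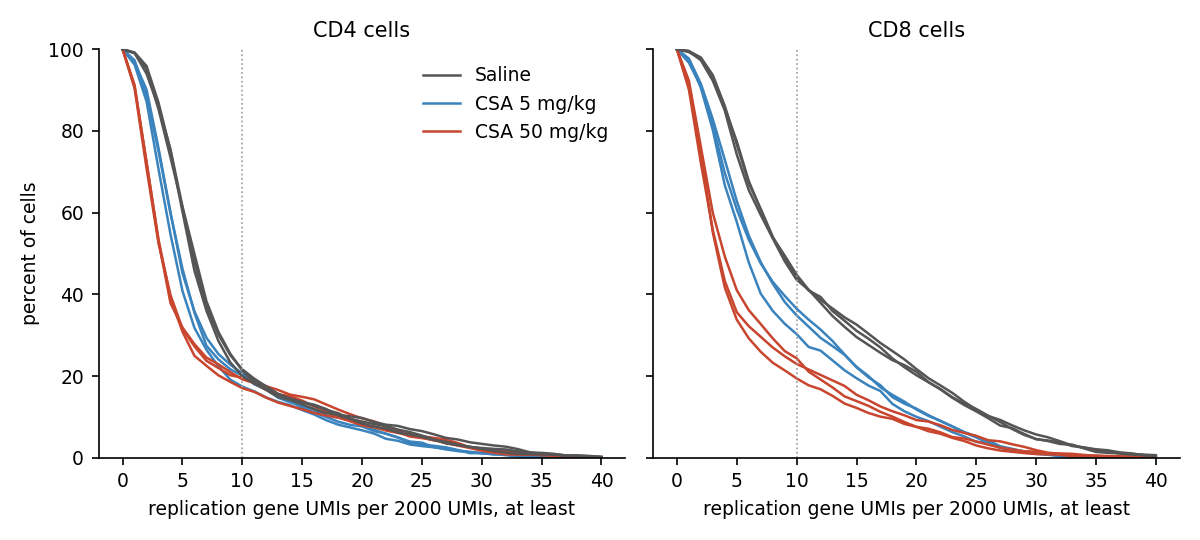
Share of cells (percent, after thinning to 2000 UMIs) that hold at least a given number of UMIs of the 53 genes, 1 line per pool, with saline, CSA 5 mg/kg and CSA 50 mg/kg in CD4+ and CD8+ T cells. At 10 UMIs the CD8+ lines lie at 44.2% under saline, 33.9% for the low dose and 22.3% for the high dose. CD4+ lines lie at 21.0%, 19.4% and 18.6%.

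Other genes of the same pathways were counted from whole lists, to be read against the shares of all genes given above (34.7% higher and 35.8% lower in CD4+ and 37.1% and 36.9% in CD8+ cells at 50 mg/kg). Of 59 other replication genes at 50 mg/kg, 23 rose and 23 fell in CD4+ cells (7 and 41 with library size scaling), and 13 rose and 35 fell in CD8+ cells (4 and 51), where the difference between lineages was lower for 23 and higher for 1. In saline mice 43 of the 59 were higher in CD8+ cells and 0 lower. Among them, Pole4, a small subunit of DNA polymerase epsilon, rose by 0.79 and 0.88 in CD4+ and CD8+ cells, E2f1, the activating factor, rose by 0.72 and 0.47, and the origin-firing factor Ticrr fell by 0.92 and 1.67. Brca2, a homologous recombination gene, fell by 0.86 and 1.98. Of the G1 cyclins, CDK inhibitors and pocket proteins, 8 of 16 rose and 5 fell in CD4+ cells (3 and 7 with library size scaling), and 7 of 17 rose and 7 fell in CD8+ cells (2 and 12). Ccnd2, cyclin D2, rose by 0.84 and 1.26, Cdk6, its kinase partner, fell by 1.29 and 2.04, and Rbl2, the pocket protein p130, fell by 1.14 and 1.49. The values of single genes in this paragraph are with TMM scaling only. Whether their directions hold with library size scaling or with the length trend removed was not tested. Mitosis and G2/M genes, which come after S phase, were 11 higher and 16 lower of 38 in CD4+ (5 and 28 with library size scaling) and 7 higher and 28 lower in CD8+ cells, and 36 of 38 passed the test of the difference as lower in CD8+ cells. All 38 were higher in CD8+ than in CD4+ cells of saline mice.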

How the data were processed

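Single-cell RNA-seq counts (10x Chromium 5' v2) of sorted splenic donor T cells were analysed. The deposited UMI counts per gene and cell were made by the authors with Cell Ranger and processed in Seurat 3.0.0 on mm10, per the labels, with cells already filtered and clustered. The mitochondrial fraction per cell in the deposited tables of cells was made by the authors and was used only as a check. Counts were summed per pool of 2 mice and lineage (TEa cells left out), scaled by TMM and tested with edgeR 4.0.16 (filterByExpr, quasi-likelihood, R 4.3.3) over all genes, adjusted by Benjamini-Hochberg, with calls at 0.05. All 9 pools of a lineage entered 1 fit. Differences between lineages came from an interaction of lineage and dose over 18 sums, with the pool as a block. Pools of a group share 1 capture, so p-values measure the spread between pools. Log2 values are differences of TMM-scaled CPM with standard errors.

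The members and gene lists were chosen with earlier results of these data known, so no p-value was given for their sum. Genes with pool values were those named by a fixed rule: per role the most abundant and the most changed per lineage, up to 5 by smallest p of the difference between lineages and up to 5 called in opposite directions. Transcript lengths were the longest coding transcript of the annotation for mm10. The removal of the length trend was added after the data were seen. Tests were checked on simulated counts, in which 93.5% (CD4+, 10422 genes) and 91.5% (CD8+, 10693 genes) of 200 genes changed by log2 1 were recovered. Of the unchanged genes, 9 and 10 were called. These counts had as many rises as falls, the same spread for all genes and no trend with length. Far more genes were called in the data, so the check does not cover the choice of scaling. Alternatives were library size scaling, DESeq2 1.42.0, no filter, only the groups compared, a replicate block, TEa cells included, cells of at least 2000 UMIs, thinning and leaving out each pool. Same-numbered pools deviated with correlations between -0.085 and 0.042 (CD4+) and -0.030 and 0.071 (CD8+) with the other groups, so the numbers were not taken as pairs.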

Additional observations from a re-analysis of the deposited data

Results flagged for a closer look

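By the edgeR test of the difference, the CD8+ change was below the CD4+ change of the same pools for 2 members at 5 mg/kg. At 50 mg/kg it was below for 47. Of all genes, 1.54% and 10.4% were called lower at these doses. Leaving out 1 pool at a time gave 0 to 2 and 43 to 48 members, and DESeq2 called fewer at both doses. At 50 mg/kg the difference was -0.73 for Rrm1, -0.86 for Clspn, -0.64 for Rrm2, -0.71 for Uhrf1 and -0.52 for Mcm5 on the log2 scale. Both lineages of a pool went through the same capture.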

How the results depend on the processing

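Counts of called members kept within 1.5 times their value in all but the fits given here, and summed levels and gene values kept their direction except as listed. The cause of each shift was not tested.

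With library size scaling, CD4+ cells had 1 member higher and 37 lower for the low dose, then 4 and 35 for the high dose, and 9 and 13 between the doses. CD8+ cells had 2 and 40 for the low dose, with 0 higher for the high dose, and the difference between lineages was lower for 7 at 5 mg/kg. Outside the cycling clusters 31 (CD4+) and 36 (CD8+) were lower at 5 mg/kg. At 50 mg/kg, CD4+ C3 had 7 higher, CD4+ C5 27 lower and CD8+ C2 4 higher and 32 lower. With the length trend removed, 6 were lower at 5 mg/kg in CD4+ cells, 8 in CD4+ cells outside the cycling clusters, 10 in CD4+ C6 and 9 in CD8+ C4. DESeq2 called 4 lower at 5 mg/kg in CD4+ cells, 9 higher and 2 lower between the doses there, 4 lower in CD8+ cells outside the cycling clusters at 5 mg/kg, 7 higher in CD4+ C3 and 7 lower in CD4+ C5, and for the difference between lineages 1 at 5 mg/kg and 26 at 50 mg/kg. After thinning, the summed level under saline, low and high dose was 0.386%, 0.322% and 0.292% in CD4+ and 0.583%, 0.433% and 0.310% in CD8+ cells. With a limit of 15 member UMIs the share of thinned cells was 13.5%, 12.3% and 13.6% in CD4+ and 31.1%, 21.3% and 13.8% in CD8+ cells. With cluster shares held at saline the summed level was 0.344% for the high dose in CD4+ and 0.530% and 0.513% for the low and high dose in CD8+ cells.

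Log2 values at 50 mg/kg (unless stated) of these members turned in sign with library size scaling. In CD8+ cells they were Gmnn -0.41, Pclaf -0.29, Tyms -0.30, Slbp -0.43, Chaf1b -0.38 and Rad51ap1 -0.52. In CD4+ cells they were Dut -0.23, Slbp -0.075, Ccne1 -0.17, Clspn -0.36, Uhrf1 -0.36, Mcm5 -0.12, Fen1 -0.17, Mcm2 -0.20 and Rpa2 -0.36. In CD8+ cells at 5 mg/kg they were Cdca7 -0.061 and Rpa2 -0.087. Other values turned with the length trend removed. In CD4+ cells they were Mcm6 0.32, Gmnn -0.088, Rpa3 -0.065, Pola1 0.053, Dut -0.093, Rrm1 0.085, Chaf1a 0.43, Usp1 0.18, Ccne1 -0.018 and Rpa2 -0.27. In CD8+ cells they were Mcm6 0.089, Gmnn -0.60, Rpa3 -0.48, Slbp -0.25, Chaf1b -0.19 and Rad51ap1 -0.20. DESeq2 gave Usp1 0.0043 and Cdca7 0.0013 in CD4+ cells.

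Leaving out 1 pool at a time, called counts ranged as follows. At 5 mg/kg in CD4+ cells they were 9 to 14 higher and 4 to 11 lower (9 and 6 without saline pool 3, 4 lower without low dose pool 3), and between the doses 9 to 19 higher (9 without high dose pool 1) and 3 to 8 lower (3 without low dose pool 1). The difference between lineages at 5 mg/kg was lower for 0 to 2, and CD8+ cells outside the cycling clusters had 4 to 8 lower at 5 mg/kg (4 without saline pool 1). The ranges were 7 to 12 in CD4+ C3, 8 to 12 in CD4+ C5, 7 to 19 in CD4+ C6 and 8 to 14 in CD8+ C4. At 50 mg/kg 34 to 37 were lower in CD8+ cells and 43 to 48 differences between lineages passed. Gene values near 0 crossed it at 50 mg/kg: in CD4+ cells Usp1 ranged from -0.052 to 0.018 (0.012 and 0.018 without high dose pool 2 and 3), Uhrf1 from -0.014 (without high dose pool 1) to 0.15 and Cdca7 from -0.11 to 0.11 (0.074 without high dose pool 3, 0.11 without saline pool 2), and in CD8+ cells Rad51ap1 ranged from -0.00296 (without saline pool 2) to 0.031 (-0.000956 without high dose pool 3).

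The numbers of the pools did not pair them. With a replicate block, 37 members were lower at 50 mg/kg in CD8+ cells and 19 higher and 11 lower in CD4+ cells, 26 of 26 counts stayed within 1.5 times and 52 of 52 gene values kept their side of the threshold. Counts also stayed within 1.5 times with TEa cells included (9 counts), with cells of at least 2000 UMIs (12), with only the groups compared (12) and without the filter (15). Depth limits the smallest members, with as few as 38 UMIs in a pool, and the sparse clusters, where CD4+ C5 allowed tests of 35 members and CD8+ C4 held 20 cells at 50 mg/kg.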
